A study of Mus musculus with 2 samples.

Results

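The 7 genes Psmb5 to Psmb11 encode the catalytic beta subunits of the proteasome, and their UMIs (unique molecular identifiers, 1 for each captured RNA molecule) were counted in droplet single-cell libraries of mouse thymic stroma. They were picked by symbol from the 32285 features of the count matrices, and all 7 were found there. The stroma came from mice labelled E2F_M11, in which CRISPR-Cas9 removed a pair of E2F sites from the proximal promoter of Foxn1, the gene for the transcription factor of thymic epithelial differentiation. The tissue was digested with collagenase/dispase and DNase, erythrocytes were removed by lysis, and magnetic beads took out the blood cells, which carry CD45. There were 2 libraries of this 1 group, made with the 10x Genomics 3' kit. The labels give no age, sex or strain and name no animals for either library, so a spread between them may be technical. The wild-type stroma named in the series' design was not analysed here, and all values below describe the deletion line alone.

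The proteasome degrades ubiquitin-tagged proteins in a barrel of alpha and beta rings, and 3 of its beta positions cut peptide bonds. In most cells Psmb6, Psmb7 and Psmb5 fill the positions β1, β2 and β5. Interferon and immune cells bring in Psmb9, Psmb10 and Psmb8 in their place, which gives the immunoproteasome and changes the peptides offered on MHC class I. In cortical thymic epithelium a further β5 subunit, Psmb11, forms the thymoproteasome, known for its role in the positive selection of CD8 T cells.

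Cells were assigned to 12 gates by counts of marker genes, none of which is a proteasome gene. The thymic epithelial gates were cTEC (cortical), Aire-high mTEC (medullary, with the regulator Aire), Ccl21a-high mTEC (medullary, with the chemokine Ccl21a), dividing mTEC, and 4 gates of medullary cells that mimic peripheral tissue, namely tuft, keratinocyte, microfold and secretory. The others were fibroblast, endothelial, thymocyte and dividing thymocyte. The cTEC gate held 74 cells in library 1 and 145 in library 2, the Aire-high gate 218 and 170, and the Ccl21a-high gate 359 and 273. Fibroblasts were the most numerous, with 1639 and 1782 cells. Library 1 was the deeper one, with a median of 8727 UMIs per kept cell against 1874, and cTEC cells had medians of 17241 and 2294. Markers of other cell types were detected in the gates. Summed over 11 thymocyte markers, the cTEC gate had 857 CPM (UMIs per 1e6 UMIs of the gate) in library 1 and 967 in library 2, against 119 and 313 in the Aire-high gate and 156 and 421 in the Ccl21a-high gate. All 11 were above 0 in the cTEC gate of both libraries. The 9 fibroblast markers summed to 301 and 1823 CPM in the cTEC gate, and 4 neutrophil markers summed to 2224 and 1243 CPM in the Aire-high gate.

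The genes lie on 5 chromosomes of the mouse build GRCm38 (mm10). Psmb5 (chr14:54614119-54618022, minus strand) and Psmb11 (chr14:54621433-54629556, plus strand) are neighbours with 3410 bases between them. Psmb9 (chr17:34181987-34187764, minus strand) and Psmb8 (chr17:34197721-34201454, plus strand) lie 9956 bases apart in the MHC region with the peptide transporter Tap1 between them. The 5' end of Tap1 overlaps that of Psmb9 on the opposite strand, away from the 3' ends that the kit reads. Psmb6 lies at chr11:70525367-70527858 (plus strand), Psmb7 at chr2:38588036-38644087 (minus strand) and Psmb10 at chr8:105935735-105938444 (minus strand).

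RefSeq promoter windows of GRCm38.p6, from 250 bases before to 50 bases after the start, were found for 6 of the 7 members, all but Psmb7. They were searched on both strands for the FOXN1 core GACGC and for the interferon-stimulated response element core GAAANNGAA. The windows of Psmb11 and Psmb8 are shown because both genes supply β5, with Psmb11 higher and Psmb8 lower in cortex below, and that of Psmb9 because it is the neighbour of Psmb8. Each is written 5' to 3' on the strand of the gene, with the matched letters in capitals. The Psmb11 window (chr14:54625060-54625359) lies inside the gene span given above, since RefSeq places the start further downstream. The Psmb8 and Psmb9 windows, placed below, also lie inside their gene spans. For these genes the bases before the start of the span were not searched.
Psmb11: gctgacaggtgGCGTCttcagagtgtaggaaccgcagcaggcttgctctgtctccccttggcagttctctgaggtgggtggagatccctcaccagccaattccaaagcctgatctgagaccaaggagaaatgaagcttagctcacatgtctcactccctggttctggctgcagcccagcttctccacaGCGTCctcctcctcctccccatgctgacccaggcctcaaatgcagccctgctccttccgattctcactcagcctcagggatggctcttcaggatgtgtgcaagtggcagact
Psmb8: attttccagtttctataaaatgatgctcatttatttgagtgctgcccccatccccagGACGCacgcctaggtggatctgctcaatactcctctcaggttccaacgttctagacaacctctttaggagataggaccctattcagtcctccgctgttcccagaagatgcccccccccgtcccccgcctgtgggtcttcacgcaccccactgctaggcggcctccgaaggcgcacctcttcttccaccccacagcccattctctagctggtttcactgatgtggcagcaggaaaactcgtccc
Psmb9: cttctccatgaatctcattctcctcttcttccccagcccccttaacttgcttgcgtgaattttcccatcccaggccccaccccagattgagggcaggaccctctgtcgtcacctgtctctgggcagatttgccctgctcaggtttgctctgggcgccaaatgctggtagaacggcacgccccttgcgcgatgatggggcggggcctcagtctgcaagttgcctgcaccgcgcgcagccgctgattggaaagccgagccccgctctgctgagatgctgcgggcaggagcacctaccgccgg
The Psmb11 window held the FOXN1 core in 2 places, at -239 and -62 from the start, both read as GCGTC on the gene's strand. The Psmb8 window (chr17:34197945-34198244) held 1 such core at -193. No match overlapped another, and the windows of Psmb9 (chr17:34187281-34187580), Psmb5, Psmb6 and Psmb10 held neither motif. Of 32851 windows of the same length, 27.2% held the FOXN1 core and 8.56% the interferon element. A match says only that these letters are present.

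Psmb11, the thymus β5 subunit, was present in the cTEC gate at a level far above every other gate. Its level there was 1204 CPM in library 1 (95% exact Poisson interval 1151 to 1258, from 1958 UMIs) and 866 in library 2 (790 to 947, from 478 UMIs), or 1035 ± 239 (SD, n = 2). Among the other 11 gates the level ran from 0 to 14.3 CPM. The highest value came from 1 UMI in the 8 cells of the dividing thymocyte gate of library 1. Dividing mTEC, keratinocyte and microfold gates had no Psmb11 UMI in either library, which puts the cTEC level at least 344-fold higher than the dividing mTEC gate in library 1 and at least 104-fold higher in library 2, against 3 counts per library. The Aire-high gate held 5 and 2 Psmb11 UMIs, so that the cTEC level was 1020-fold higher (435 to 3130) in library 1 and 684-fold higher (188 to 5670) in library 2. Against fibroblasts, with 9 and 8 Psmb11 UMIs, it was 2120-fold (1120 to 4650) and 861-fold higher (433 to 2000). These intervals cover counting error only. The thymocyte gate of library 1 held 4 Psmb11 UMIs, of which 3 were in 1 cell, and that of library 2 held 5 among 913 cells. Of all Psmb11 UMIs in the libraries, 88.7% in library 1 and 65.4% in library 2 fell in cells of the cTEC gate.

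**Figure D1:**
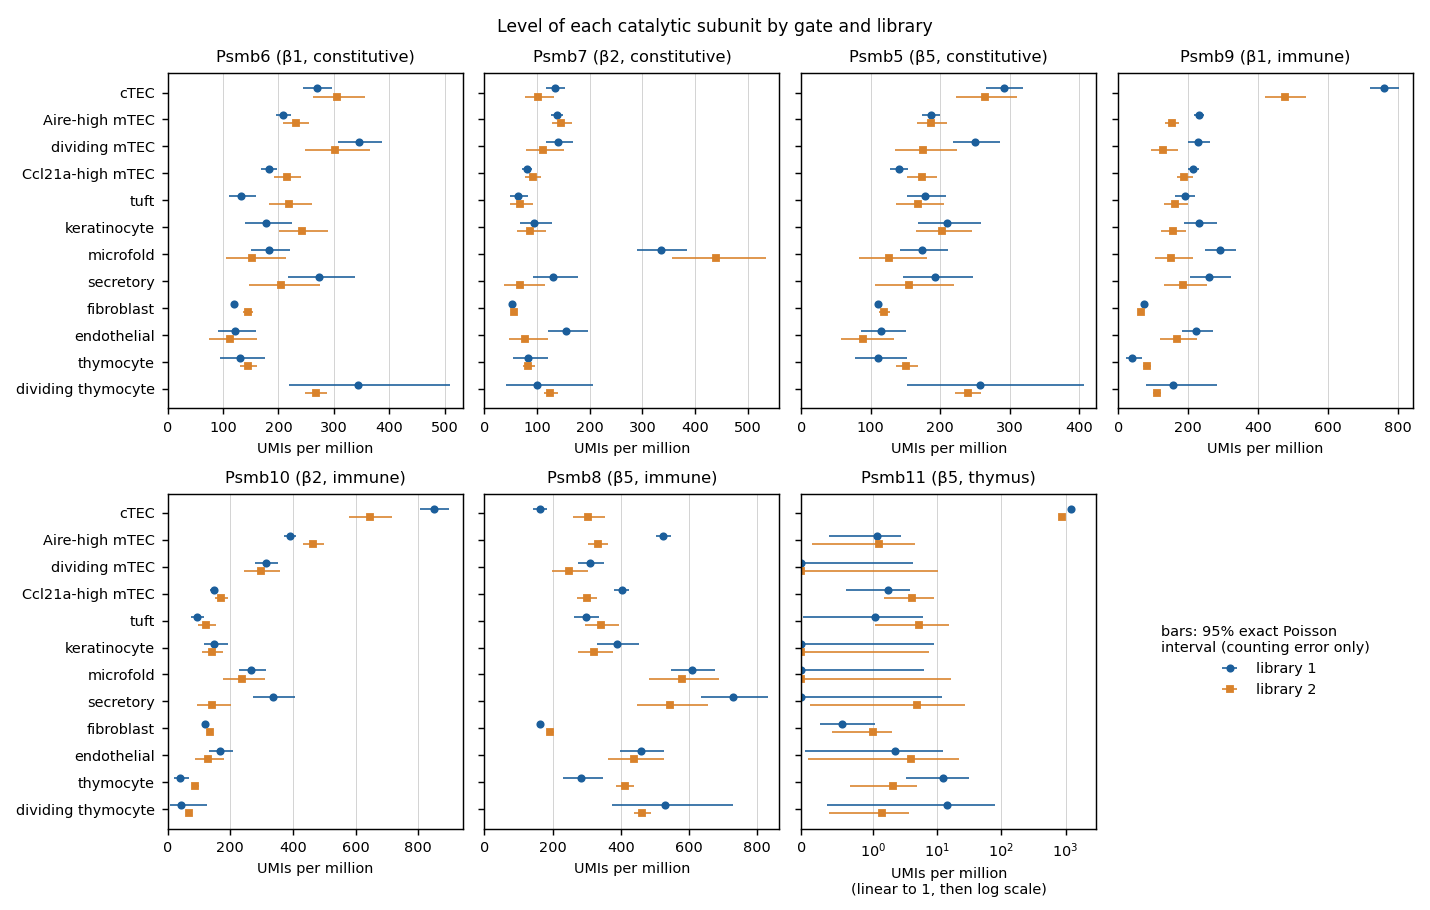
Level of each of the 7 subunits, in CPM on the horizontal axis (Psmb11: linear to 1, then a log scale), in the 12 gates on the vertical axis, with 1 point per library and bars for the 95% exact Poisson interval. Psmb11 stands at 1204 and 866 in the cTEC gate and at or below 14.3 elsewhere, Psmb9 and Psmb10 are also highest in the cTEC gate, and Psmb7 is highest in the microfold gate.

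Cortex was then set against medulla, with UMIs summed per library and gate, all gates in 1 fit and the library as a block. Dividing cells were taken out of the Aire-high and Ccl21a-high gates but stayed in the cTEC gate and the 4 mimetic gates. In library 2 they were 44 of 145 cTEC, 22 of 129 tuft and 8 of 122 keratinocyte cells, against 0 in each of these gates in library 1. Their part in the comparisons of these gates was not tested. Calls were made with edgeR's quasi-likelihood test over 12443 genes, at a Benjamini-Hochberg adjusted p of up to 0.05. In the cTEC gate against the mean of the Aire-high and Ccl21a-high gates, 2 of the 6 members other than Psmb11 were higher, where 9.44% of all genes were, and 1 was lower, where 8.05% of all genes were. All 7 members passed the filter on low counts, but Psmb11 did so only through the cTEC gate, where it had to differ. Its log2 values of 8.87 and 7.90 in the single libraries are therefore given as a description with no test, and Psmb11 is left out of the counts of calls in all comparisons.

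Psmb8, the immune β5 subunit, went the other way. It stood at 162 CPM in the cTEC gate of library 1 and 304 in library 2, against 523 and 331 in the Aire-high gate and 402 and 299.6 in the Ccl21a-high gate. Library 1 thus showed a wide gap, whereas in library 2 the cTEC level lay between the medullary gates. The fitted difference was -0.89 log2 (SE 0.29, adjusted p = 0.0466). Library 1 alone gave -1.62 and library 2 alone -0.19, so that the size rests on library 1. The call was lost without the library block (adjusted p = 0.0504), with 1 more marker asked of each gate (0.0508) and with cells thinned to 1000 UMIs (0.225), and the range over all alternatives was 0.00909 to 0.225. Thymocytes themselves had 284 and 411 Psmb8 CPM. In cTEC cells with at most 10 thymocyte marker UMIs per 10000, a limit added after the data had been seen, Psmb8 stood at 148 CPM in 61 cells of library 1 and at 289.5 in 67 cells of library 2, and the fitted difference was -0.998 (adjusted p = 0.027). The part of thymocyte RNA in the Psmb8 level of the full gate was not tested. In the 18 and 15 cTEC cells with no thymocyte or macrophage UMI it stood at 168 (117 to 234) and 194 (88.5 to 367). Psmb5, the constitutive β5 subunit, had 291 and 265 CPM in the cTEC gate, the highest mean of all gates (278 ± 19, SD, n = 2). Its difference from mTEC was 0.57 (SE 0.21, adjusted p = 0.0781), which missed the threshold, although DESeq2's Wald test called it (0.0213).

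The subunits that can fill 1 position were also set side by side as shares of its UMIs. A 3' library counts molecules whatever their length, but differences in capture between genes were not measured. These are shares of RNA, and no protein was measured. In the cTEC gate Psmb11 made up 72.6% of the β5 UMIs of library 1 (95% exact binomial interval 70.9 to 74.3) and 60.4% in library 2 (56.9 to 63.8). Psmb5 made up 17.6% and 18.4%, and Psmb8 9.79% and 21.2%. In each of the other 11 gates Psmb8 led, with 55.3% to 82.5% of the β5 UMIs, and the highest Psmb11 share was 3.01%, in the thymocyte gate of library 1. Endothelial and microfold gates had the Psmb8 shares nearest the top, at 79.6% and 82.5% and at 77.8% and 82.2%. Averaged over single cells instead of pooled UMIs, the Psmb11 share in the cTEC gate was 67.7% and 49.99%.

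**Figure D2:**
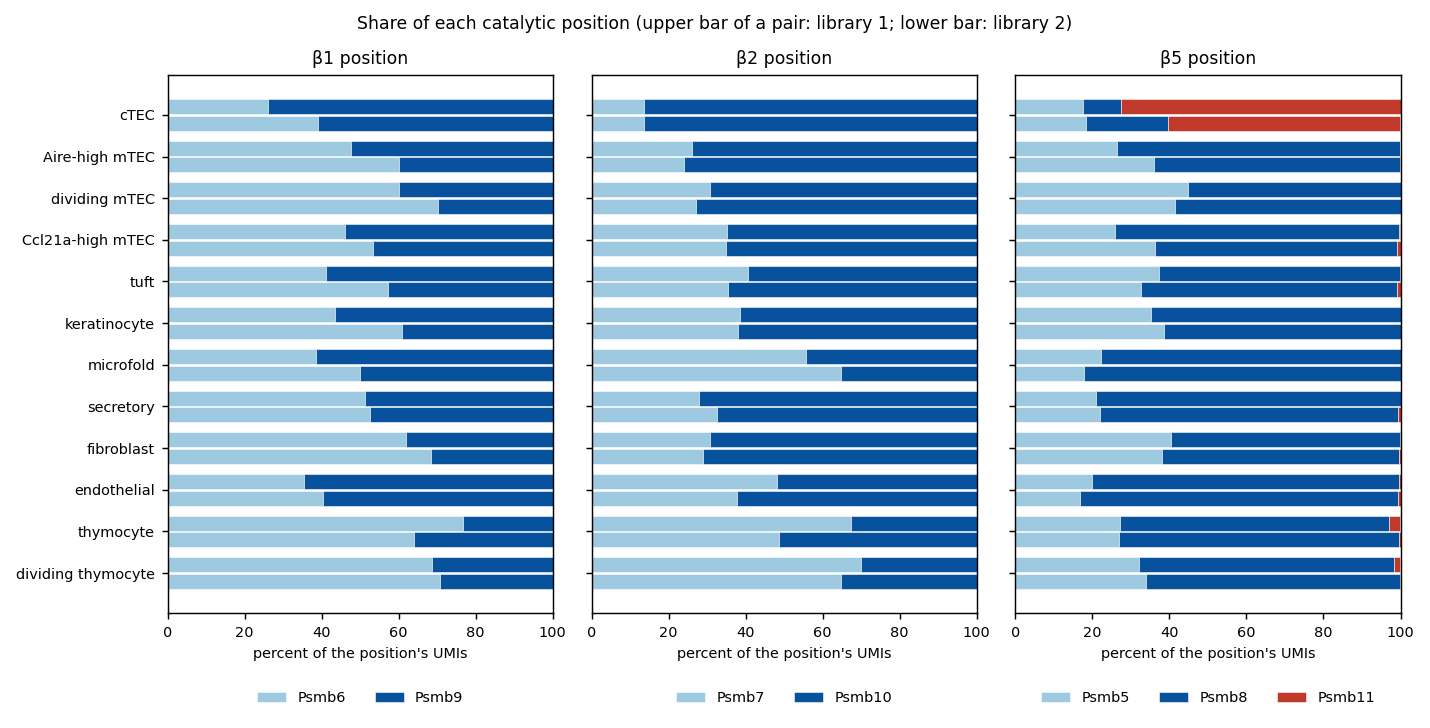
Share of the UMIs of each catalytic position (β1, β2, β5; horizontal axis, percent) held by the constitutive subunit in light blue, the immune subunit in dark blue and Psmb11 in red, for the 12 gates on the vertical axis, with library 1 as the upper and library 2 as the lower bar. Psmb11 holds 72.6% and 60.4% of β5 in the cTEC gate, where Psmb10 also holds 86.4% of β2 in both libraries.

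Psmb9 and Psmb10, the immune subunits of β1 and β2, were higher in cortex. Psmb9 had 761 CPM in the cTEC gate of library 1 and 476 in library 2, against 153 to 230 in the medullary Aire-high and Ccl21a-high gates. Psmb10 had 851 and 645, against 389 and 464 in the Aire-high gate and 148 and 171 in the Ccl21a-high gate. For both genes each cTEC value exceeded each medullary one. The log2 folds were 1.503 for Psmb9 (SE 0.27, adjusted p = 0.00211) and 1.395 for Psmb10 (SE 0.245, adjusted p = 0.00164). Both were called in all 10 alternatives that could be fitted. The constitutive partners showed no call, with 0.32 for Psmb6 (SE 0.19, adjusted p = 0.268) and -0.03 for Psmb7 (SE 0.23, adjusted p = 0.963). Accordingly Psmb9 made up 73.8% and 60.9% of the β1 UMIs in the cTEC gate against 39.9% to 54.0% in those medullary gates, and Psmb10 86.4% in both libraries of the β2 UMIs against 64.8% to 76.1%. In cTEC cells within the limit of 10 thymocyte marker UMIs per 10000, Psmb9 stood at 839 and 598 and Psmb10 at 928 and 713 CPM. The thymocyte gate had 39.6 and 81.4 CPM of Psmb9 and 39.6 and 88.0 CPM of Psmb10, the lowest or next to lowest means of the 12 gates.

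Other proteasome genes also differed between cortex and medulla, in lists chosen with earlier results of these data known. Of all 12443 genes tested, 9.44% were higher in the cTEC gate and 8.05% lower. Of the 7 alpha subunits, which form the outer rings, 5 were higher in the cTEC gate and none was lower, with Psma5 (0.98) and Psma7 (0.95) at the top and Psma2 (0.65) and Psma3 (0.60) at the lower end of those called. All 4 non-catalytic beta subunits were higher, led by Psmb4 at 1.86 (SE 0.18, adjusted p = 1.42e-05), with Psmb2 at 0.87, Psmb3 at 0.58 and Psmb1 at 0.58. Of 17 subunits of the 19S cap, which unfolds substrates, 11 were higher and none lower, among them Psmd4 (0.92), Psmd14 (0.90), Psmc5 (0.54) and Psmc1 (0.53). The median log2 fold was 0.65 for alpha subunits, 0.72 for the non-catalytic beta subunits and 0.59 for the cap, beside -0.04 over all genes tested. The 9 activators and assembly factors split. Pomp, which helps the rings to assemble, was higher (0.89), whereas Psme1 (-1.96, SE 0.40, adjusted p = 0.00478) and Psme2 (-1.15, SE 0.22, adjusted p = 0.00269), the interferon-responsive PA28 cap, were lower. Psme1 differed by -3.02 in library 1 and -1.23 in library 2. Of 10 interferon-responsive MHC class I genes, Erap1 (0.77), a peptide-trimming enzyme, was higher, and Nlrc5 (-1.73), the activator of MHC class I genes, B2m (-0.84) and H2-D1 (-0.54), which form the class I molecule, were lower. Tap1, which lies between Psmb8 and Psmb9, did not pass (-0.05, SE 0.31, adjusted p = 0.96).

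**Figure D3:**
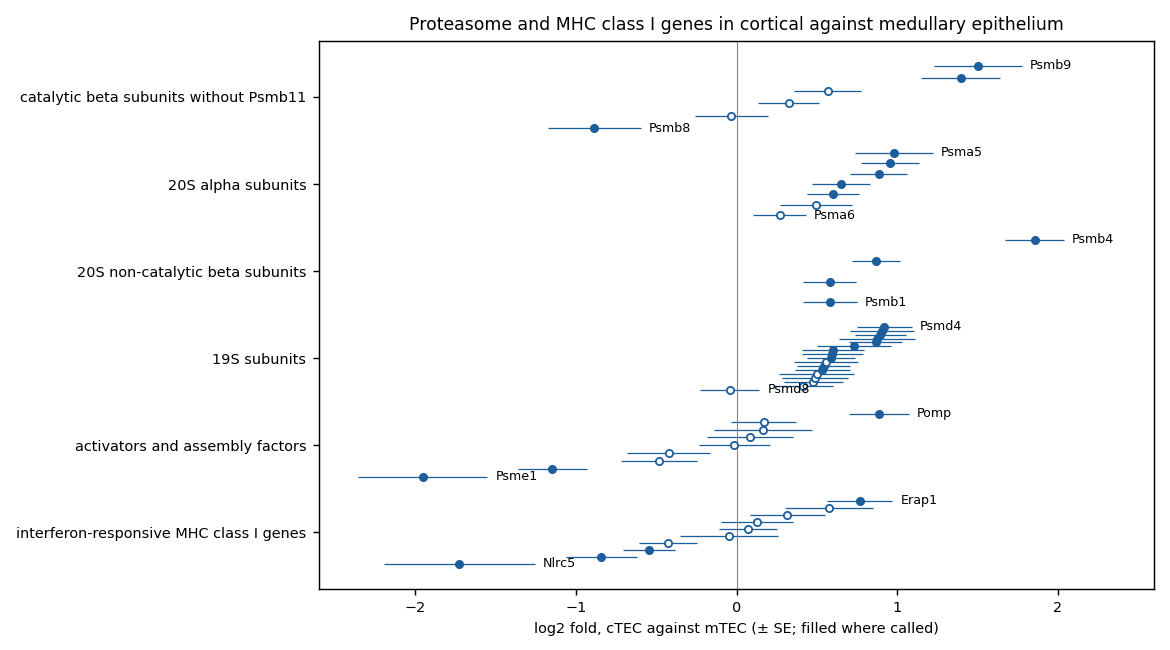
Log2 fold in the cTEC gate against the mean of the Aire-high and Ccl21a-high mTEC gates (horizontal axis, ± SE), 1 point per gene, filled where called, by list on the vertical axis. Catalytic subunits without Psmb11 run from Psmb8 at -0.89 to Psmb9 at 1.503, most core and cap subunits sit to the right of 0, and Psme1 (-1.96) and Nlrc5 (-1.73) are the lowest.

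Cells with division markers were unequally spread over the cTEC gates, with 0 of 74 in library 1 and 44 of 145 in library 2. In library 2 the dividing cTEC cells had 645 Psmb11 CPM (95% exact Poisson interval 533 to 773) and the others 973 (876 to 1079). Psmb9 stood at 283 (211 to 373) against 570 (496 to 652), and Psmb10 at 461 (367 to 572) against 734 (649 to 826). Psmb8, at 306 (230 to 398) against 304 (250 to 365), and Psmb5, at 272 (201 to 360) against 261 (212 to 318), had overlapping intervals. Within library 2 the 3 subunits that set the cTEC gate apart were thus lower in its dividing cells, with intervals that do not overlap and cover counting error only. The median dividing cell was also deeper, at 3320.5 UMIs against 1991, and had 15.1 thymocyte marker UMIs per 10000 against 8.08. Library 2 also held 620 dividing thymocytes, with 1.42 CPM of Psmb11, 110 of Psmb9, 68.1 of Psmb10, 463 of Psmb8 and 239 of Psmb5, and the part of their RNA in these values was not tested. With dividing cTEC cells in 1 library there is no test between libraries, and the non-dividing cTEC cells of library 2 still had less Psmb11 and Psmb9 than the 1204 and 761 of library 1.

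Within the medulla, the Aire-high gate was higher than the Ccl21a-high gate for 2 of the 6 members other than Psmb11, where 18.2% of all genes were, and lower for none, where 13.4% of all genes were. Psmb10 led, at 389 and 464 against 148 and 171 CPM, with no overlap between the gates and a log2 fold of 1.52 (SE 0.30, adjusted p = 0.00167). Psmb7 stood at 138 and 146 against 80.5 and 91.3, a log2 fold of 0.83 (SE 0.25, adjusted p = 0.0222), and its call was lost with no low-count filter (0.0616), looser gates (0.0553) and thinning (0.461). Psmb9 had 230 and 153 in the Aire-high gate against 214 and 189, and a fitted difference of 0.00 (SE 0.33, adjusted p = 0.996). Psmb8 (0.38, SE 0.31, adjusted p = 0.378), Psmb5 (0.36) and Psmb6 (0.25) did not pass. The β1 and β2 immune subunits therefore differed in this comparison in whether they passed the test, and the difference between them was not tested. The neutrophil markers named above summed to 14.3 and 25.02 CPM in the Ccl21a-high gate, and the median Aire-high cell had none. Their part in the Psmb10 and Psmb7 differences was not tested. Among the pathway genes, 1 of 7 alpha subunits (Psma6, 1.13) and 1 of 17 cap subunits (Psmd8, 0.62) were higher. So were 2 of 9 activators and assembly factors, Psme2 (1.77) and Psme3 (0.97), the latter a nuclear activator cap. None of the 4 non-catalytic beta subunits was called, and no gene of these lists was lower.

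Dividing mTEC had 26 and 38 cells. None of the 6 members other than Psmb11 was called against the Aire-high gate by edgeR's quasi-likelihood test or by DESeq2, where 3.26% of all genes were higher and 4.15% lower, and 1 member, Psmb8, had an unadjusted p under 0.05. It stood at 310 and 247 CPM against 523 and 331 (log2 fold -0.76, SE 0.32, adjusted p = 0.162). Psmb6, at 346 and 303, had its highest mean of all gates in dividing mTEC (0.42, SE 0.22, adjusted p = 0.266). Psmb10, at 314 and 297, differed by -0.63 (SE 0.30, adjusted p = 0.214). The other members lay nearer to 0, with 0.04 for Psmb5, -0.25 for Psmb9 and -0.32 for Psmb7. Of the 9 activators and assembly factors 1 was higher, Psmg2 (1.14), a chaperone of ring assembly. Of the 10 MHC class I genes 2 were lower, B2m (-0.97) and Irf1 (-1.12), a transcription factor of the interferon response. No alpha, non-catalytic beta or cap subunit was called.

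**Figure D4:**
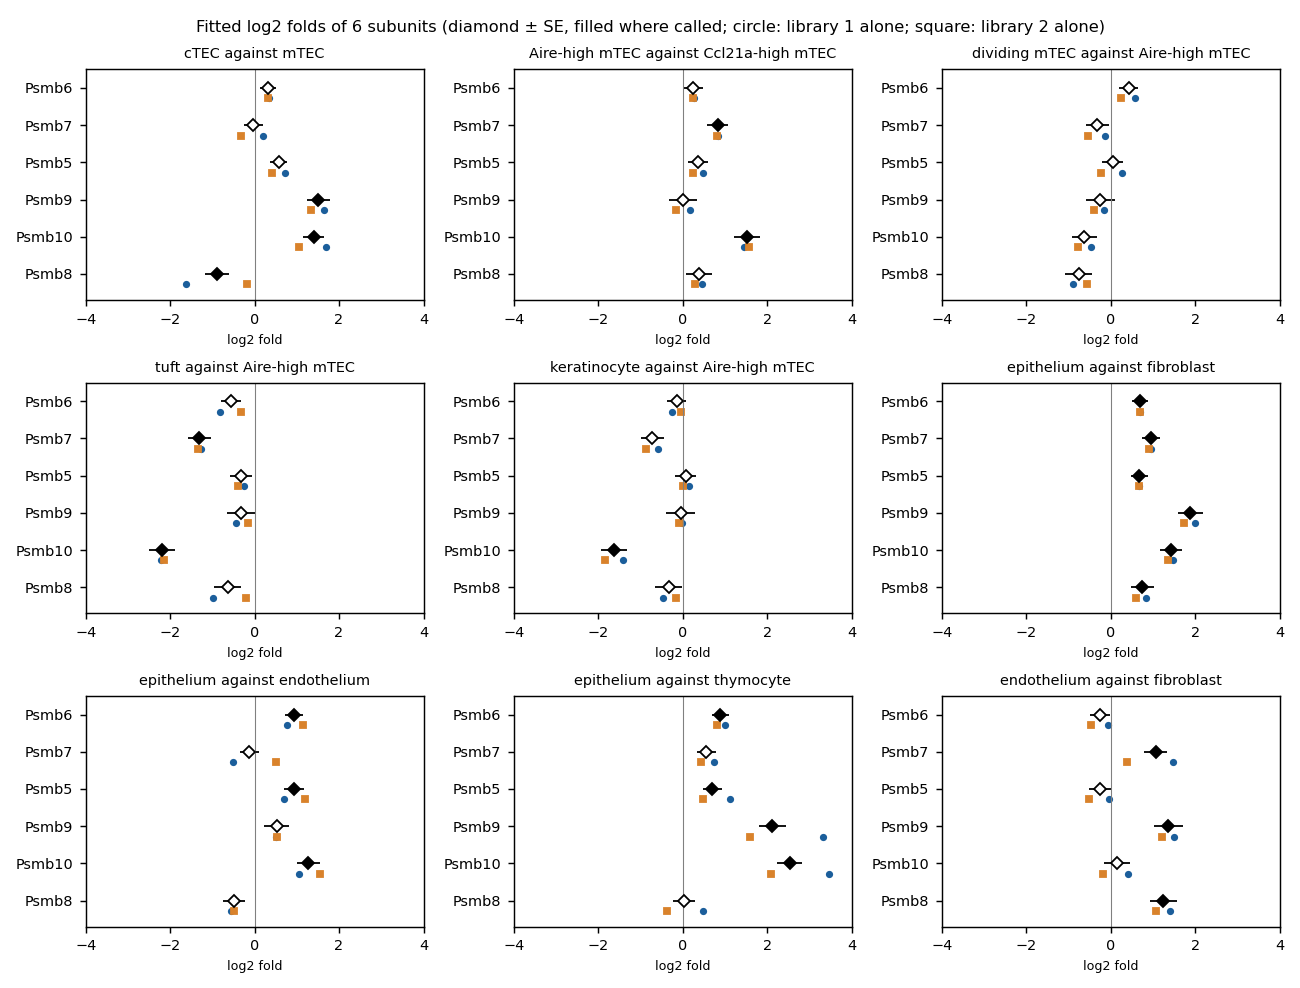
Fitted log2 folds (diamonds, ± SE, filled where called) of the 6 members other than Psmb11 in 9 comparisons (panels), with the value of library 1 alone as a circle and of library 2 alone as a square. Psmb10 is called in 7 of the panels, and the libraries part most for Psmb8 in cTEC against mTEC (-1.62 and -0.19) and for Psmb9 in epithelium against thymocyte (3.32 and 1.58).

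Tuft cells, which carry taste-signalling genes, had the lowest epithelial Psmb10 level. At 94.0 and 123 CPM against 389 and 464 in the Aire-high gate, Psmb10 differed by -2.20 log2 (SE 0.32, adjusted p = 0.000186) and was lower. Psmb7 was also lower, at 64.5 and 67.8 against 138 and 146 (-1.32, SE 0.27, adjusted p = 0.0026). These were the 2 of 6 members other than Psmb11 called lower, where 14.7% of all genes were, and none was called higher, where 11.1% of all genes were. Psmb6, the constitutive β1 subunit, missed the threshold at -0.56 (SE 0.23, adjusted p = 0.0837), which was called lower by DESeq2's Wald test (-0.61, adjusted p = 0.00707) and with the stricter cell filter (-0.67, adjusted p = 0.0432). Neutrophil markers, whose part was not tested, summed to 53.5 and 6.95 CPM in tuft cells and to 183 and 441 in keratinocyte cells, below the Aire-high gate. Psmb9 stood at 190 and 163 (-0.31, SE 0.34, adjusted p = 0.546), Psmb8 at 297 and 342 (-0.63, SE 0.32, adjusted p = 0.163) and Psmb5 differed by -0.32. In the same comparison 4 of 7 alpha subunits were lower, among them Psma6 (-1.30) and Psma4 (-1.17). So were 2 of 4 non-catalytic beta subunits, Psmb2 (-0.82) and Psmb4 (-0.75). Of the 9 activators and assembly factors 2 were lower, Psme2 (-1.99) and Psme1 (-1.23). Of the 17 cap subunits 1 was higher and 1 lower.

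Keratinocyte-gated cells, marked by genes of keratinocyte differentiation, numbered 24 and 122. In them 1 of the 6 members other than Psmb11 was lower, where 8.05% of all genes were, and none was higher, where 8.97% of all genes were. It was Psmb10, at 149.5 and 140.3 CPM (-1.63, SE 0.31, adjusted p = 0.00277), a level close to that of the Ccl21a-high gate. Psmb7, at 94.0 and 86.2, missed the threshold (-0.72, SE 0.27, adjusted p = 0.0842) and was called by DESeq2's Wald test (0.0369). The pathway genes called, all lower, were 1 of 7 alpha subunits (Psma6, -0.81) and 1 of 9 activators and assembly factors (Psme2, -1.08). With them went 1 of 10 MHC class I genes (Irf1, -1.36). None of the 4 non-catalytic beta or 17 cap subunits was called. Psmb8, at 388 and 323, differed by -0.34 (SE 0.32, adjusted p = 0.523), Psmb6 by -0.14, Psmb9 by -0.05 and Psmb5 by 0.07.

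Microfold-gated cells, which resemble the antigen-sampling cells of gut epithelium, had the highest Psmb7 level of all gates, a pattern noticed after the values were seen and not tested. Psmb7 stood at 335 CPM in library 1 and 439 in library 2, while no other gate exceeded 156. A few cells held much of it. In library 1, 3 of 33 cells held 133 of 198 Psmb7 UMIs, the highest of them 91, and in library 2, 2 of 46 cells held 53 of 98. Without cells of more than 13 Psmb7 UMIs the levels were 135 and 272, which in library 1 is within the range of the other gates. With every cell thinned to 1000 UMIs, 30.3% of microfold cells had a Psmb7 UMI in library 1 and 34.8% in library 2, against 13.3% and 10.6% in the Aire-high gate. Psmb7 held 55.6% and 64.9% of the pooled β2 UMIs of this gate. Averaged over cells it held 55.1% in library 2 but 39.5% in library 1, where Psmb10 led. Microfold and secretory cells also had the highest Psmb8 means, at 594 ± 22.1 and 636 ± 131 CPM (SD, n = 2). Without cells of more than 13 Psmb8 UMIs the levels were 337 and 477 in the microfold and 321 and 423 in the secretory gate. Endothelium, where no cell had more than 13, stood at 458 and 439. This limit depends on depth, and library 1 had medians of 16176 UMIs per microfold, 16594 per secretory and 4677 per endothelial cell. There it left out 15 of 33 microfold and 7 of 19 secretory cells, and in library 2 it left out 2 of each. The median cell had 516 and 418 CPM of Psmb8 in the microfold gate, 486 and 133 in the secretory gate and 358 and 273 in endothelium. Neutrophil markers summed to 1312 and 318 CPM in microfold and to 2143 and 908 in secretory cells, and their part in the Psmb8 level was not tested. The secretory gate had 19 cells in library 1, too few for the fit.

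Against fibroblasts, epithelium (the mean of the cTEC, Aire-high and Ccl21a-high gates) was higher for all 6 members other than Psmb11, where 18.8% of all genes were, and lower for none, where 23.6% of all genes were. Psmb9 showed the widest gap apart from Psmb11, with 74.1 and 66.8 CPM in fibroblasts and a log2 fold of 1.88 (SE 0.30, adjusted p = 0.000118). Psmb10 followed at 1.42 (SE 0.26), from 118 and 135 CPM in fibroblasts. The Ccl21a-high gate had 148 and 171 CPM of it, and tuft cells, which are outside this mean, had 94.0 and 123. The constitutive Psmb7 (0.94), Psmb6 (0.68) and Psmb5 (0.67) and the immune Psmb8 (0.74, SE 0.27, adjusted p = 0.035) differed by less than 1 log2 unit. The calls of Psmb5 (adjusted p = 0.0784) and Psmb6 (0.0714) were lost with no low-count filter, and that of Psmb8 (0.0651) with looser gates. Thinning cells to 1000 UMIs lost the calls of Psmb5, Psmb6, Psmb7 and Psmb8. Psmb11, with no test, had log2 values of 3.58 and 3.38 in the single libraries through the cTEC gate, and 1.22 and 2.89 CPM as means in the medullary gates. Psmb8 in the cTEC gate of library 1 matched the fibroblast level, at 162 against 163. Alpha and non-catalytic beta subunits were higher in 7 of 7 and 4 of 4 cases, with Psma6 (1.15) and Psmb4 (1.02) at the top. Of the 10 interferon-responsive MHC class I genes 5 were higher. Only 1 was lower, Tapbp (-0.71), the tapasin of the peptide-loading complex.

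In endothelium, the lining of blood vessels, immune β5 and β1 subunits were higher than in fibroblasts. Psmb8 stood at 458 and 439 CPM and Psmb9 at 223 and 167, against 163 and 193 and against 74.1 and 66.8 in fibroblasts, with no overlap. In this comparison 3 of the 6 members other than Psmb11 were higher, where 8.24% of all genes were, and none was lower, where 10.6% of all genes were. The log2 folds were 1.24 for Psmb8 (SE 0.32, adjusted p = 0.0132) and 1.36 for Psmb9 (SE 0.35, adjusted p = 0.0125). The third was Psmb7 (1.06, SE 0.27, adjusted p = 0.0126), whose value was 1.47 in library 1 and 0.38 in library 2, and whose call was lost with no low-count filter (adjusted p = 0.065). With cells thinned to 1000 UMIs none of the 3 was called (adjusted p = 0.194 for Psmb8, 0.0972 for Psmb9 and 0.33 for Psmb7). Of its 69 UMIs in library 1, 27 were in 3 cells of 85. Psmb10, at 167 and 128.2 against 118 and 135, did not pass (0.15, SE 0.31, adjusted p = 0.823), nor did Psmb5 or Psmb6 (both -0.25). Tap1 (1.44), H2-K1 (0.72), Tap2 (0.69) and H2-D1 (0.61) of the MHC class I list were higher as well. Set against endothelium, epithelium was higher for 3 of the 6, where 12.7% of all genes were, and lower for none, where 15.4% of all genes were. These were Psmb10 (1.27, SE 0.28, adjusted p = 0.00302), Psmb6 (0.93, SE 0.21, adjusted p = 0.00379) and Psmb5 (0.93, SE 0.24, adjusted p = 0.009). By gate, Psmb10 stood at 851 and 645 CPM in cTEC, 389 and 464 in Aire-high and 148 and 171 in Ccl21a-high cells. The range of the Ccl21a-high gate overlapped that of endothelium. The Psmb6 call was lost with cells thinned to 1000 UMIs (edgeR adjusted p = 0.0503). Psmb8 (-0.49, SE 0.26, adjusted p = 0.178), Psmb9 (0.52, SE 0.30, adjusted p = 0.216) and Psmb7 (-0.12) did not pass. Comparisons that use the same gate share its libraries.

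Thymocytes, the T cell precursors left after the depletion, had far more Psmb8 than Psmb9 or Psmb10. Psmb8 stood at 284 CPM in library 1 and 411 in library 2, Psmb9 at 39.6 and 81.4, and Psmb10 at 39.6 and 88.0. Epithelium was higher than the thymocyte gate for 4 of the 6 members other than Psmb11, where 24.3% of all genes were, and lower for none, where 18.4% of all genes were. The log2 folds were 2.54 for Psmb10 (SE 0.29, adjusted p = 1.05e-05), 2.12 for Psmb9 (SE 0.32, adjusted p = 0.000101), 0.89 for Psmb6 and 0.70 for Psmb5. The Psmb5 call was lost with looser gates (adjusted p = 0.101) and with thinning (0.403), whereas Psmb7 (0.56, SE 0.23, adjusted p = 0.0595) was called with stricter gates (0.0397) and by DESeq2's Wald test (0.0256). The libraries parted for several of these. Psmb10 differed by 3.45 in library 1 and 2.10 in library 2, Psmb9 by 3.32 and 1.58, and Psmb5 by 1.12 and 0.47. Psmb8 differed by 0.02 (SE 0.26, adjusted p = 0.981), at 0.47 and -0.36 in the single libraries. Of the MHC class I list 8 of 10 were higher in epithelium, led by H2-K1 (2.74) and B2m (2.36). Dividing thymocytes numbered 8 in library 1 and 620 in library 2, so no test against non-dividing ones could be fitted. In library 2 they had 239 CPM of Psmb5 and 267 CPM of Psmb6 against 151 and 145 in non-dividing thymocytes, 463 CPM of Psmb8 against 411, and 68.1 CPM of Psmb10 against 88.0.

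Ordered by mean level, most neighbouring gates overlapped between the 2 libraries. Of 11 neighbouring pairs of gates, 2 were free of overlap for Psmb5, 1 for Psmb6, 3 for Psmb7, 2 for Psmb8, 3 for Psmb9, 5 for Psmb10 and 3 for Psmb11. The cTEC gate stood clear at the top for Psmb5, Psmb9, Psmb10 and Psmb11. For Psmb10 the Aire-high gate (427 ± 52.5, SD, n = 2) was next and also stood clear of all others. Dividing mTEC (306 ± 11.5) followed, clear of its neighbour, the microfold gate, but inside the range of the lower-ranked secretory gate (141 to 335). For Psmb8 the cTEC gate was next to last (233 ± 101), and its range overlapped that of fibroblasts (178 ± 21.6). For Psmb6 the neighbours free of overlap were microfold cells and thymocytes, although the tuft range (133 to 219) reached those of thymocytes and fibroblasts.

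Patterns of likeness were taken over the 20 sums of library and gate in the fit, which share libraries and depth. Pearson's r of log2 levels was 0.84 between Psmb5 and Psmb6 and 0.79 between Psmb9 and Psmb10. Psmb8 was apart from its immune partners, with 0.21 to Psmb9 and 0.07 to Psmb10, and had -0.44 to Psmb11. The genes most like Psmb10 were Psma3 (0.95), Psmb2 (0.92), Prdx1, Psma4 and Spr, 3 of them core proteasome subunits. Those most like Psmb8 were Rin3 (0.83), Fabp4, Serpinb1a, Mmp15 and Pdgfb. For Psmb9 they were Slco2a1 (0.90), Clic5, the cap subunit Psmc2, the immune checkpoint ligand Cd274 and Larp1b. For Psmb11 they were Gm11290 (0.94), Plekhb1 (0.93), Gm29481, Tepp and Inpp1. Psmb11 had 1958 and 478 UMIs in the cTEC sums and at most 9 in any other sum. Its r values, also that to Psmb8, therefore rest on the cTEC sums.

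Single cells were compared at equal depth, each thinned to 1000 UMIs, with no cell left out. A Psmb11 UMI was then found in 60.8% of cTEC cells of library 1 (95% exact binomial interval 48.8 to 72.0) and in 37.2% in library 2 (29.4 to 45.6), against 93.2% and 61.4% before thinning. In fibroblasts, which should lack the gene, the shares were 0.122% and 0.0561% (0.549% and 0.449% before thinning), at medians of 9027 and 2584 UMIs per cell. Of the Aire-high cells 0 of 218 and 0 of 170 had one, which allows shares of up to 1.38% and 1.76% with a Psmb11 UMI. Psmb8 was found in 12.2% and 24.1% of cTEC cells, against 14.5% and 17.5% of fibroblasts and 36.2% and 20.6% of Aire-high cells. In the Ccl21a-high gate it was found in 32.3% of cells of library 1. In library 2 it was found in 22.1% of the 272 Ccl21a-high cells without a Psmb11 UMI. The cTEC share was thus the lowest of these in library 1 but the highest in library 2, and the differences were not tested. Within the cTEC gate Psmb8 was seen in 11.1% of the cells with a Psmb11 UMI and in 13.8% of those without in library 1, and in 22.2% and 25.3% in library 2, with overlapping intervals. Thymocyte markers had a median of 11.4 per 10000 UMIs of a cTEC cell in library 2 against 1.03 in library 1. Pooled over the gate they stood at 967 and 857 CPM. Among the cTEC cells within the limit of 10 the thinned share was 57.4% of 61 cells in library 1 (44.1 to 70.0). In library 2 it was 61.2% of 67 cells (48.5 to 72.9). The limit was added after the data had been seen and kept 67 of the 145 cTEC cells of library 2. The median dividing cTEC cell of that library was above the limit, at 15.1. The part of thymocyte RNA or of division in the share was not tested.

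**Figure D5:**
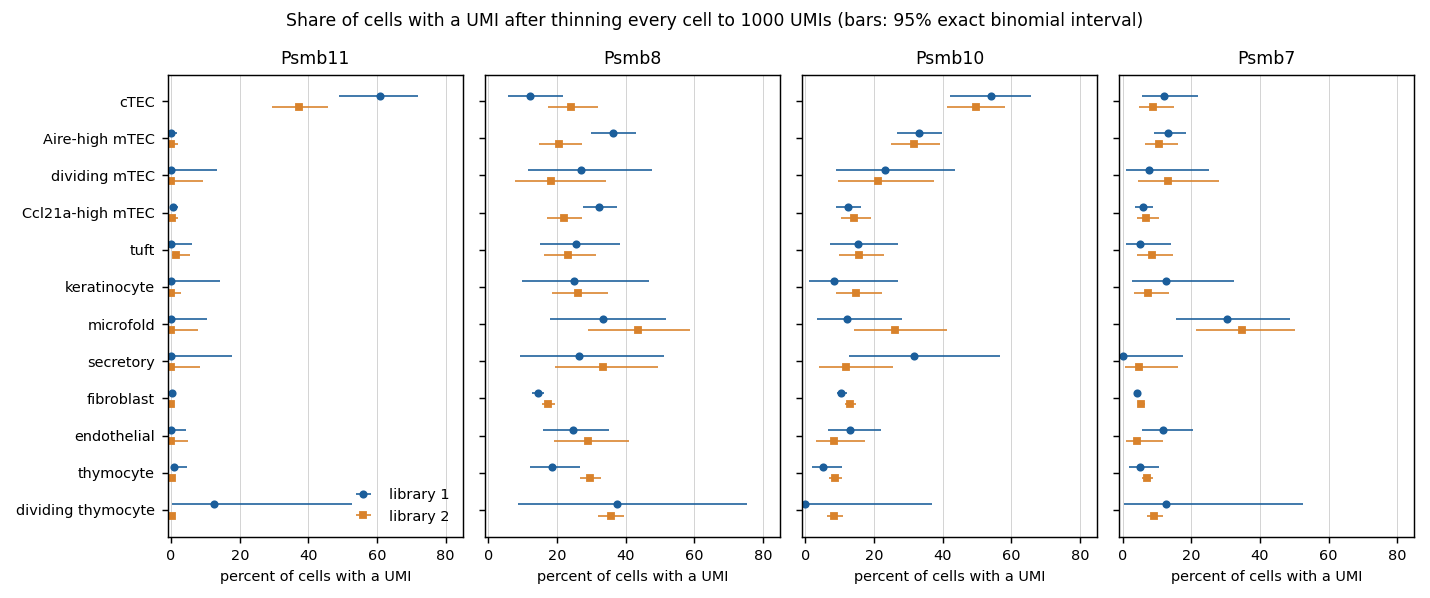
Share of cells with a UMI of Psmb11, Psmb8, Psmb10 or Psmb7 (panels; horizontal axis, percent) after thinning every cell to 1000 UMIs, by gate and library, with 95% exact binomial intervals. Psmb11 is found in 60.8% and 37.2% of cTEC cells, and Psmb7 in 30.3% and 34.8% of microfold cells.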

How the data were processed

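Both libraries were deposited as unnormalised counts of UMIs for each gene and barcode. Per the file headers the matrices came from Cell Ranger 6.0.0, whereas Cell Ranger 7, Seurat 4 and mm10 stand in the submitters' processing notes. Upstream filters: not given in the sources used here. The libraries held 41075328 UMIs in 5110 barcodes and 42583831 in 19163. A minimum of 500 genes and 1000 UMIs and a maximum of 10% mitochondrial UMIs left 3588 and 8186 barcodes. The libraries shared 30 barcodes, of which 13 were kept in both.

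Genes and promoters were placed with GENCODE and RefSeq on GRCm38. A cell joined a gate when it passed a minimum of distinct markers and of marker UMIs per 10000 for exactly 1 lineage (epithelial: 3 and 16) and state (cTEC: 3 and 32). Tuft, keratinocyte, microfold and secretory states took precedence over Aire-high. Cells of more than 1 lineage (134 and 694) or none (406 and 2048) were left out. No doublet caller was used. The members, lists and markers were chosen with earlier results of these data known, and the limits of the gates were set after marker levels and first member values had been seen. The epithelial limit was lowered and the precedence added so that more gates reached 20 cells per library.

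Raw counts were summed per library and gate and tested with edgeR 4.0.16 (R 4.3.3; quasi-likelihood, TMM, filterByExpr, library as block since each library holds every gate, 9 residual degrees of freedom) over 10 gates with 20 cells in each library. DESeq2 1.42.0 was an alternative. In counts simulated for cTEC against mTEC over 12443 genes, the fit found 12% of 2-fold and 76% of 4-fold changes, with 3 false calls. SE is that of the log2 fold. Psmb11 entered the fit only through the cTEC gate and is described without its test. The other members were named in every comparison, with at most the 2 highest and 2 lowest called genes per list, and the 5 most alike genes. A motif and a gene of the lists are not reported here.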

Additional observations from a re-analysis of the deposited data

Results flagged for a closer look

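Psmb11 UMIs were also found outside the gates that the comparisons use, above the 3 counts that a count of 0 allows. Barcodes below the cell filter had 11.8 CPM of Psmb11 in library 1, from 38 UMIs, and 9.72 CPM in library 2. Kept cells of no gate held 95 Psmb11 UMIs in library 1, of which 43 were in 1 cell, and 75 in library 2, where no cell had more than 3. Epithelial cells of no single state, which no comparison uses, held 89 Psmb11 UMIs in library 1 (21.9 CPM), of which 33 were in 1 cell, and 36 in library 2 (9.83 CPM).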

How the results depend on the processing

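Of 54 values of a member other than Psmb11 in a comparison 24 were called, 12 of these the same way in every alternative that could be fitted and 17 in every one other than thinning cells to 1000 UMIs. Thinning left 4896 genes and lost 12 calls. The number of members called was then 1 for Aire-high against Ccl21a-high mTEC, 1 for tuft against Aire-high mTEC and 2 for epithelium against fibroblast. It was 3 for epithelium against thymocyte and 0 for endothelium against fibroblast. Psmb8 in cTEC against mTEC and Psmb6 in epithelium against endothelium were also lost. With no low-count filter the lost calls were Psmb7 in Aire-high against Ccl21a-high mTEC and in endothelium against fibroblast, and Psmb5 and Psmb6 in epithelium against fibroblast. With looser gates they were Psmb7 in Aire-high against Ccl21a-high mTEC, Psmb8 in epithelium against fibroblast and Psmb5 in epithelium against thymocyte, and with stricter gates Psmb8 in cTEC against mTEC. The number called was thus 1 for Aire-high against Ccl21a-high mTEC under the first 2, and 2 for keratinocyte against Aire-high mTEC with DESeq2's Wald test. Without the library block, 3 in place of 4 members, both counts with Psmb11, were called in cTEC against mTEC, and no other call changed. In cTEC cells with no thymocyte or macrophage UMI, Psmb11 made up 79.9% of the β5 UMIs in place of 66.5% and was found in 67.2% of cells in place of 49.0%; with 18 and 15 such cells no fit of cTEC was possible, nor of any comparison other than Aire-high against Ccl21a-high. One library at a time gave 60.4% to 72.6% and 37.2% to 60.8%. The cause of these changes was not tested. Dividing mTEC could not be fitted with stricter gates or with the thymocyte limit, and keratinocytes not with the stricter filter or gates. A fit of 1 library has no residual degrees of freedom and gave log2 folds with no test.

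None of the called differences reversed. Those that changed sign, all without a call, were Psmb6 (-0.10, thinned) and Psmb9 (-0.09 with no low-count filter, -0.038 with the looser cell filter, -0.03 with looser gates) in Aire-high against Ccl21a-high mTEC. In dividing mTEC against Aire-high mTEC, thinning gave -0.89 for Psmb5 and 0.047 for Psmb11. In keratinocyte against Aire-high mTEC, thinning gave -0.70 for Psmb5, 0.02 for Psmb6 and 0.15 for Psmb11, and Psmb9 was 0.019 with looser gates and 0.003 with the thymocyte limit. Psmb7 in epithelium against endothelium was 0.035 with the looser cell filter. Psmb8 in epithelium against thymocyte was -0.02 with no low-count filter, -0.027 with the looser and -0.12 with the stricter cell filter, -0.009 with stricter and -0.19 with looser gates, and -0.02 with the thymocyte limit. Psmb10 in endothelium against fibroblast was -0.055 with no low-count filter, -0.053 with the looser cell filter and -0.40 when thinned. Over all genes, calls ran from 231 (thinned) to 2674 (no low-count filter) around 2176 in cTEC against mTEC, and from 20 to 1696 around 922 in dividing against Aire-high mTEC.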
